A study of Homo sapiens with 6 samples.

Results

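The 10 genes described here encode the MYC, MAX and MXD network: the MYC family (MYC, MYCN, MYCL), their partner MAX, and the antagonists MXD1, MXD3, MXD4, MXI1, MNT and MGA. They were chosen by gene symbol, through the GENCODE name of each Ensembl identifier, and all 10 were found among the 25969 genes of each library. RNA was sequenced from cells transfected with a VIM-AS1 overexpression vector (3 libraries) and from cells given pcDNA3.1, an expression plasmid serving as control (3 libraries). The labelled genotypes are VIM-AS1 overexpressed and WT. VIM-AS1 is a noncoding transcript read from the strand opposite VIM, which encodes vimentin. Both groups are labelled LNCaP, a line of prostate cancer cells, and the series asks how VIM-AS1 overexpression affects gene expression. The labels give neither the time after transfection nor whether replicates are separate cultures. The p-values therefore reflect spread among these libraries alone, and that spread may be technical.

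MYC proteins do not bind DNA alone. They pair with MAX through a basic helix-loop-helix leucine zipper and bind the E-box CACGTG at promoters, where they recruit histone acetyltransferases and factors that release paused RNA polymerase. The MXD proteins, MXI1, MNT and MGA compete for MAX and for the same E-boxes, the MXD proteins, MXI1 and MNT with the SIN3 histone deacetylase co-repressor and MGA with a Polycomb complex. MYC is known in prostate cancer as a frequently amplified or overexpressed oncogene, and its targets serve ribosome synthesis, nucleotide and polyamine synthesis and the cell cycle.

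The E-box is shown here in the promoters of the 2 network genes whose RefSeq window held it, MXD4 and MNT, and of PLK1, a mitotic kinase gene among the MYC-induced targets below. Each line gives the 250 bases before the RefSeq start of the gene (GRCh38.p14), 5′ to 3′ on the strand of the gene, with CACGTG in capitals. The windows are chr4:2262110-2262359 on the minus strand for MXD4, chr17:2401061-2401310 on the minus strand for MNT and chr16:23678639-23678888 on the plus strand for PLK1.
MXD4: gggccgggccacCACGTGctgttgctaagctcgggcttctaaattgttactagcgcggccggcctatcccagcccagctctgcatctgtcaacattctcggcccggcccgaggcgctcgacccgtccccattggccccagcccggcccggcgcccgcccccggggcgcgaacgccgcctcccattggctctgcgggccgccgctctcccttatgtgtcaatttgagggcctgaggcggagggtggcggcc
MNT: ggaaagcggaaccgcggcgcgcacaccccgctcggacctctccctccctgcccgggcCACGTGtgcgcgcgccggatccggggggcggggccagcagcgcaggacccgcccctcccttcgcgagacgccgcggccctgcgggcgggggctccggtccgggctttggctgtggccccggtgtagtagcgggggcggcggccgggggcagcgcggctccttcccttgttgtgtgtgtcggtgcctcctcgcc
PLK1: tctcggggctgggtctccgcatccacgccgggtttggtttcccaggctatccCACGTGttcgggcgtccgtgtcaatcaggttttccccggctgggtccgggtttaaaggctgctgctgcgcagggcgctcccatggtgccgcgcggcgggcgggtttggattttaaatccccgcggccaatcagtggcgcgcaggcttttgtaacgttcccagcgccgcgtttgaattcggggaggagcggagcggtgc
The motif reads the same on both strands. It was found in 2228 of 35116 RefSeq windows (6.34%), and in 1342 of 12670 tested genes with a window (10.6%). Of the network genes 9 were matched to a window, MYC not among them, and MXD4 and MNT held the motif. MXI1 and MGA have 3 windows each and MAX has 2. A match of these letters is a description and does not show that a factor binds there.

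The libraries held 14762893 to 19889745 reads, and values are normalized read counts as deposited. VIM-AS1 was at 2197, 2019 and 2763 in its overexpression libraries, against 8.63, 1.22 and 5.53 in the controls. The label LNCaP was checked against luminal markers. KLK3, the prostate-specific antigen gene and a marker of LNCaP cells, was at 0 in 5 libraries and at 1.92 in control replicate 1. FOLH1 was at 0 in the overexpression libraries and at 0 to 3.84 in the controls. VIM, which LNCaP cells are known to express little, was at 5061 to 5532 against 5912 to 7128. Of 8 measured luminal markers, KLK3 and FOLH1 are the 2 with a mean under 10. The list summed to 68120 to 121750 in the VIM-AS1 libraries and 75797 to 138810 in the controls, most of it from the keratin genes KRT8 and KRT18, and HOXB13, a prostate lineage factor, was at 545.4 to 807.3 against 401.2 to 729.0. KLK3, FOLH1 and VIM go against the label and the keratins and HOXB13 do not, so the cells are called here the cells labelled LNCaP. The luminal list holds 11 markers, of which KLK2, TMPRSS2 and TRPM8 were not matched by symbol to any gene of the libraries. Symbols matched 99.3% of the 25969 identifiers. Whether these unmatched markers had no reads was not tested, and they lend the label no weight. In each group 1 library, the third, departed from its 2 companions. Over 13175 genes the departures of these 2 libraries from their group means correlated (Pearson r 0.84 across genes, which are not independent replicates).

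Results of 2 limma fits on log2(value + 1) over 20927 genes are therefore given side by side. The fit without a term for the third libraries called 5 genes past an adjusted p of 0.05 (0.0239%; 0.0143% higher and 0.00956% lower), none of them in the network. The fit with that term called 4065 genes (19.4%), 2403 higher (11.5%) and 1662 lower (7.94%). The verbs "rose" and "fell" are kept for genes past that threshold when the term is fitted, and fold changes, SE and intervals come from it unless stated. Its p-values may be too small, since the term was chosen with these libraries in view. In bulk RNA, fewer cells of a type and less RNA per cell cannot be told apart.

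No gene of the network rose with VIM-AS1 overexpression. MXD3 and MYCL fell, and the other 8, MYC and MAX among them, did not pass the test. Of the 10, 6 had negative fold changes, and the 10 had a median log2 fold change of -0.06, against -0.02 over all tested genes. The 2 called lower of 10 stand against 7.94% of all tested genes. Without the term limma called 0 of the 10, with 2 at an unadjusted p under 0.05, against 2854 of all 20927 tested genes. On recovered reads without the term, edgeR and DESeq2 called 0 of the 10 as well. Over all tested genes they called 4 and 353. With so few calls over all genes, 0 of 10 says little about the network. Groups did not overlap in 0 of the 10, against 19.8% of all tested genes (9.5% higher and 10.3% lower in the VIM-AS1 libraries).

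**Figure D1:**
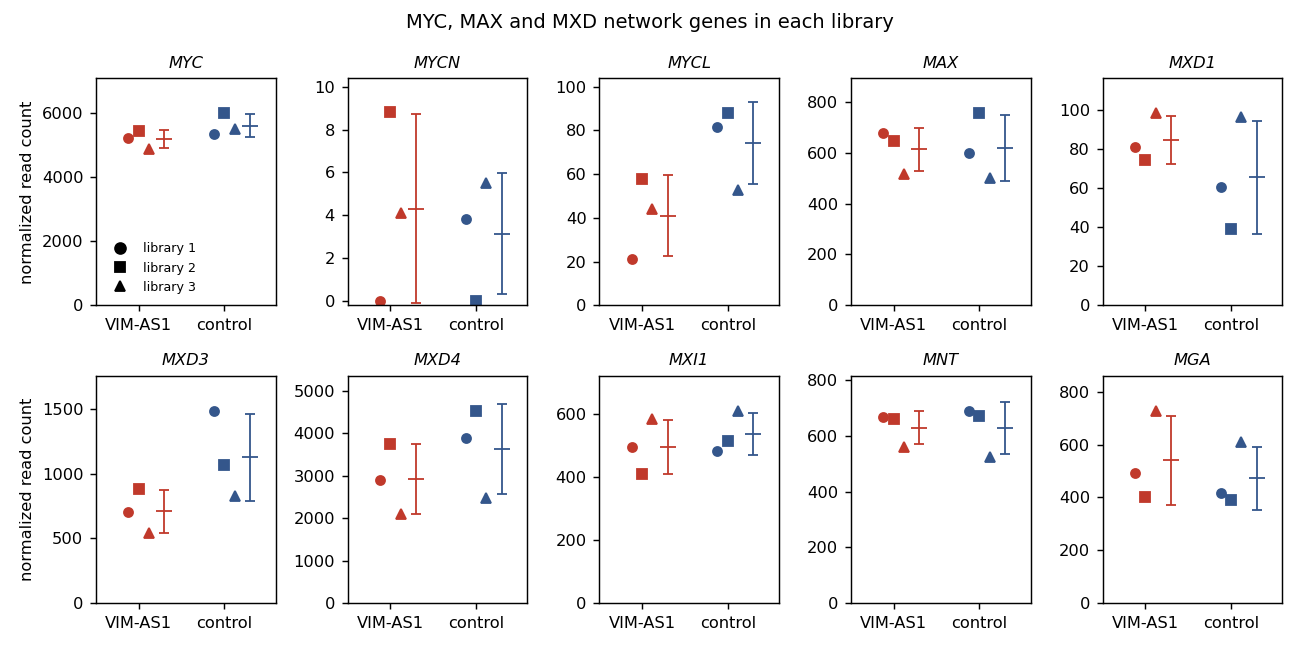
Normalized read counts (linear axis, scaled for each gene) of the 10 network genes in the VIM-AS1 overexpression libraries (red, left) and the control libraries (blue, right), with 1 symbol per library and a bar for the mean and SD of 3. MYC lies between 4881 and 5995 in all 6 libraries, and MXD3 is lower in each VIM-AS1 library than in the control library of the same number.

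MYC (ENSG00000136997, chr8:127735434-127741434 on the plus strand, GRCh38), the transcriptional activator at the centre of the network, was at 5221, 5444 and 4881 in the VIM-AS1 libraries and at 5329, 5995 and 5490 in the controls. The groups overlap, and the lowest value is that of VIM-AS1 replicate 3. MYC averaged 5182 ± 284 in the VIM-AS1 libraries and 5605 ± 347 in the controls (SD, n = 3 each). Its log2 fold change was -0.11 ± 0.10 (SE; 95% interval -0.33 to 0.11), with a limma adjusted p of 0.51 with the term and 0.86 without it. That interval leaves out changes beyond -0.33 and 0.11 in this fit, while without the term it ran from -0.55 to 0.33. PVT1, the noncoding RNA gene next to MYC, averaged 370.4 ± 35.2 with VIM-AS1 overexpression and 383.2 ± 40.6 with the control vector. The difference did not pass (log2 fold change -0.05, limma with the term, adjusted p = 0.84).

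MYCL (ENSG00000116990, chr1:39895426-39902256 on the minus strand), the family member first found in small cell lung cancer, was scarce. It was at 21.1, 57.8 and 44.0 in the VIM-AS1 libraries, from 20, 59 and 43 reads. In the controls it was at 81.5, 88.0 and 52.9, from 85, 72 and 67 reads. VIM-AS1 replicate 2 lay above control replicate 3, so the groups overlap. MYCL fell by 0.92 on the log2 scale (SE 0.32; limma with the term, adjusted p = 0.049, and 0.35 without the term). This call was made in 3 of 15 alternative settings of that fit, and it was lost when VIM-AS1 replicate 1 was left out (log2 fold change -0.42, adjusted p = 0.32). Leaving out VIM-AS1 replicate 3 gave an adjusted p of 0.18, and leaving out control replicates 1, 2 and 3 gave 0.088, 0.22 and 0.18. Antisense annotation covers 226 bp of the MYCL exons (4.46%). MYCN, the neuroblastoma-linked member, had 0, 9 and 4 reads in the VIM-AS1 libraries and 4, 0 and 7 in the controls. A library with 0 reads of it could hold up to 3.16 (VIM-AS1 replicate 1) or 3.67 (control replicate 2) normalized reads, so no difference was detectable at this depth. These floors cover counting error only.

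MAX (ENSG00000125952, chr14:65006174-65102695 on the minus strand), the partner shared by the MYC and MXD proteins, was at 678.5, 646.6 and 517.8 in the VIM-AS1 libraries and at 599.5, 757.5 and 501.5 in the controls. The third library of each group was the lowest. The mean was 614.3 ± 85.1 against 619.5 ± 129 (SD, n = 3 each), and the log2 fold change of -0.0012 had a 95% interval from -0.24 to 0.24 and did not pass in either fit.

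Among the antagonists, MXD3 (ENSG00000213347, chr5:177301461-177312757 on the minus strand), a repressor known from proliferating cells, moved most clearly. It was at 700.6, 877.9 and 542.3 in the VIM-AS1 libraries and at 1486, 1064 and 825.4 in the controls. Each VIM-AS1 library lay below its same-numbered control, although VIM-AS1 replicate 2 lay above control replicate 3. The mean was 706.9 ± 168 in the VIM-AS1 libraries, against 1125 ± 334 in the controls. MXD3 fell by 0.66 on the log2 scale (SE 0.13; limma with the term, adjusted p = 0.00117; 0.32 without the term). With the replicate number as a block, the limma adjusted p was 4.88e-05, although the labels state no pairing of same-numbered libraries. Between same-numbered libraries the log2 differences were -1.08, -0.28 and -0.60. The call was kept in 12 of 15 alternative settings and lost when the third library of either group was left out, with a limma adjusted p of 0.11 without VIM-AS1 replicate 3 and 0.12 without control replicate 3 at a log2 fold change of -0.68.

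MXD3 shares exon sequence with its neighbours, which bears on its value. Of its 5154 bp of exon, 1158 bp (22.5%) are exon of PRELID1 on the opposite strand and 926 bp (18.0%) are exon of RAB24 on the same strand. Whether counting used strand is not given in the sources used here, so reads from these stretches cannot be assigned with certainty. RAB24, a small GTPase gene, was at 178.1, 203.8 and 149.4 in the VIM-AS1 libraries and at 253.2, 208.9 and 174.6 in the controls. PRELID1, which encodes a mitochondrial lipid transfer protein, went the other way, at 3366, 4630 and 2721 against 2364, 2563 and 1430. Their part in the MXD3 difference was not tested.

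MXD4 (ENSG00000123933, chr4:2247432-2262294 on the minus strand), an antagonist linked to differentiation, was at 2910, 3749 and 2099 in the VIM-AS1 libraries and at 3898, 4536 and 2467 in the controls. It was lower in each VIM-AS1 library than in the same-numbered control, with log2 differences of -0.42, -0.28 and -0.23. The libraries within a group still differed by more than the groups. The log2 fold change was -0.31 ± 0.11 (limma with the term, adjusted p = 0.063; 0.69 without it). With the replicate number as a block MXD4 passed (adjusted p = 0.00309), and 3 network genes were called in that fit, MXD3, MYCL and MXD4, where 26.6% of all tested genes were called (15.8% higher and 10.8% lower).

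MXD1, the first MXD antagonist described, was at 81.1, 74.5 and 98.2 in the VIM-AS1 libraries and at 60.4, 39.1 and 96.4 in the controls. Its log2 fold change was 0.45 ± 0.23 (limma with the term, adjusted p = 0.20), with 0.67 over the first and second libraries and 0.03 over the third. MXI1, the MXD2 protein gene, was at 494.1, 408.6 and 581.2 against 480.6, 513.1 and 609.0. Its log2 fold change was -0.12 with a 95% interval from -0.36 to 0.13.

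MNT, a broadly expressed antagonist, was at 668.0, 659.4 and 561.8 in the VIM-AS1 libraries and at 690.6, 671.9 and 522.9 in the controls. The groups lay over each other, with a log2 fold change of 0.01 and a 95% interval from -0.22 to 0.23. MGA, which carries both a T-box and a MAX-binding domain, was at 493.1, 399.7 and 728.6 against 417.3, 389.7 and 609.8. Each VIM-AS1 value of MGA was above its same-numbered control, and the third library of each group was the highest. The log2 fold change of MGA was 0.18 ± 0.12 (limma with the term, adjusted p = 0.34).

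**Figure D2:**
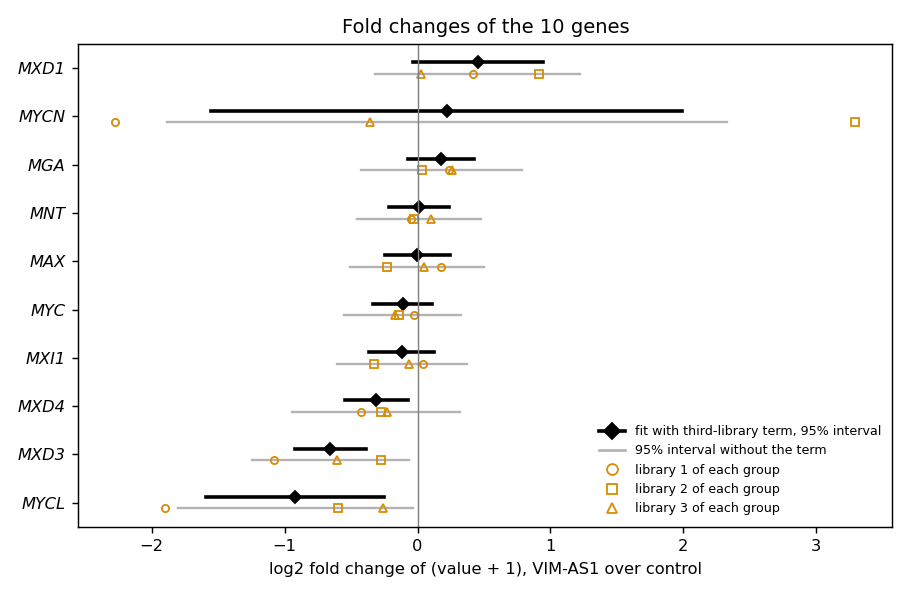
Log2 fold changes of the 10 genes, VIM-AS1 over control, from limma with the term for the third libraries (black diamonds, 95% interval), the 95% interval without the term (grey), and the differences between same-numbered libraries (orange). The intervals with the term leave out 0 for MYCL, MXD3 and MXD4, of which MXD4 had an adjusted p of 0.063.

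Per length of exon, MYC stood above all its partners and antagonists. Levels in this paragraph are normalized read counts per kb of GENCODE 29 exon, mean ± SD of 3 libraries. Exon length is the union over all annotated transcripts of a gene, which can exceed the transcript expressed. It runs from 2602 bp for MYCN and 3001 bp for MYC to 17651 bp for MGA. The order of the genes, and the ratios of MYC given below, depend on these lengths. MYC was at 1727 ± 94.5 in the VIM-AS1 libraries and 1868 ± 116 in the controls. MXD4 followed with 413.6 ± 117 against 514.8 ± 150, and in both groups its range lay apart from those of its neighbours in the order. MXD3 (137.2 ± 32.6 against 218.3 ± 64.9), MAX (138.7 ± 19.2 against 139.8 ± 29.1) and MXI1 (107.4 ± 18.7 against 116.0 ± 14.5) came next. Between MXD3 and MAX, and between MAX and MXI1, the ranges overlapped in both groups. MNT (72.1 ± 6.76 against 72.0 ± 10.5) and MGA (30.6 ± 9.60 against 26.8 ± 6.79) lay below them, each apart from its neighbours. MXD1 (13.3 ± 1.93 against 10.3 ± 4.56) and MYCL (8.09 ± 3.66 against 14.6 ± 3.68) overlapped in the controls, where MYCL had the higher mean. MYCN came last, with 1.65 ± 1.70 against 1.20 ± 1.09.

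**Figure D3:**
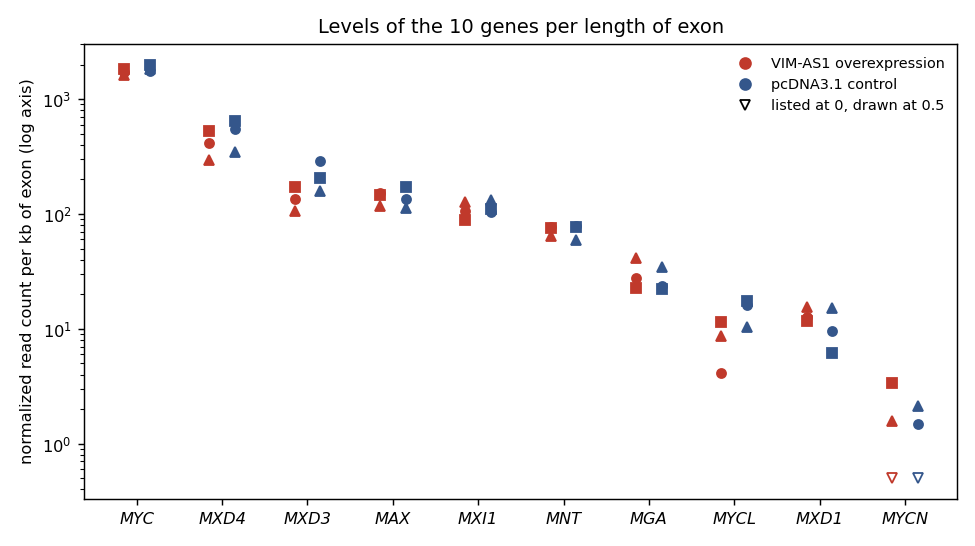
Normalized read count per kb of exon (log axis) of each network gene, ordered by the control mean, with VIM-AS1 libraries in red to the left and controls in blue to the right; open triangles are libraries listed at 0, drawn at 0.5. The order runs from MYC, at 1627 to 1998 over all libraries, to MYCN.

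The sum of antagonist RNA was lower, and the ratio of MYC to it higher, in each VIM-AS1 library than in the same-numbered control. The groups overlapped in both. Summed per kb, the 6 antagonists stood at 772.7, 900.0 and 649.9 in the VIM-AS1 libraries and at 1057, 1066 and 751.4 in the controls. MXD4 alone made up 52.7% ± 6.65 of that sum in the VIM-AS1 libraries and 53.0% ± 6.93 in the controls. MXD3 made up 17.6% ± 1.37 in the VIM-AS1 libraries and 22.7% ± 4.12 in the controls, with every VIM-AS1 library (16.2% to 18.9%) below every control (19.4% to 27.3%). These are descriptions without a test. The ratio of MYC to this sum was 2.25, 2.02 and 2.50 in the VIM-AS1 libraries, against 1.68, 1.87 and 2.43 in the controls. The groups overlap, and in both the third library was the highest. The ratio of MYC to MAX was 12.6 ± 1.28 in the VIM-AS1 libraries and 13.7 ± 2.28 in the controls.

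The pattern of MYC over the 6 libraries was nearly flat, with a range of 0.30 on the log2 scale. Of 9757 other genes with a mean of at least 100, those with the smallest root mean square distance to its centred log2 profile were GALM (0.036), C9orf40 (0.040), BCL2L13 (0.047) and SNED1 (0.047), against a median distance of 0.33 over all of them. GALM, an aldose epimerase gene, was at 447.8, 441.9 and 396.0 in the VIM-AS1 libraries and at 437.4, 474.0 and 441.5 in the controls. With so small a range, such likeness marks genes that vary as little as MYC.

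Of 62 genes listed as induced by MYC, 38 rose, none fell and 24 did not pass. The share of 61.3% called higher stands against 11.5% of all tested genes and 23.0% of the 9758 tested genes with a mean of at least 100, which 60 of the 62 reach. Their median log2 fold change was 0.52, against -0.02 over all tested genes and 0.11 over those with a mean of at least 100. None had a fold change below 0 at an unadjusted p under 0.05, and edgeR and DESeq2 with the term called 37 higher and 0 lower each. The list was written with earlier results of these data known, so its direction is not independent evidence.

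TFRC, the transferrin receptor gene, was at 5656, 5469 and 9613 in the VIM-AS1 libraries and at 2167, 1797 and 2959 in the controls. Its log2 fold change of 1.56 ± 0.11 was the largest among the called targets. ODC1, the rate-limiting enzyme of polyamine synthesis and a classic MYC target, was at 5607, 6375 and 5358 against 2447, 2605 and 2016. It rose by 1.30 ± 0.10 (limma with the term, adjusted p = 1.93e-07; 0.063 without it). HK2, a hexokinase, was at 942.9, 784.8 and 1047 against 442.2, 406.8 and 450.2, and PLK1, whose promoter is shown above, was at 7156, 8823 and 5066 against 3360, 4934 and 2758. In each of these 4 genes every VIM-AS1 library lay above every control. The same held for 19 of the 62 listed targets, against 9.5% of all tested genes and 1476 of the 9758 with a mean of at least 100. The nucleolar genes NPM1 (-0.07) and FBL (0.19) were among those that did not pass.

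Without the term limma called 0 of the 62 over all genes (22 higher at an unadjusted p under 0.05), edgeR called 0 and DESeq2 called 4. With the term, dropping VIM-AS1 replicate 3 left 7 called higher, dropping control replicate 3 left 5, and dropping both left 7. Of the 52 listed targets matched to a RefSeq promoter window, 17 held CACGTG (32.7%), against 10.6% of 12670 tested genes with a window. Targets with and without the motif had median log2 fold changes of 0.52 and 0.53, and 11 of the 17 with it rose, against 270 of the 1342 tested genes with the motif.

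**Figure D4:**
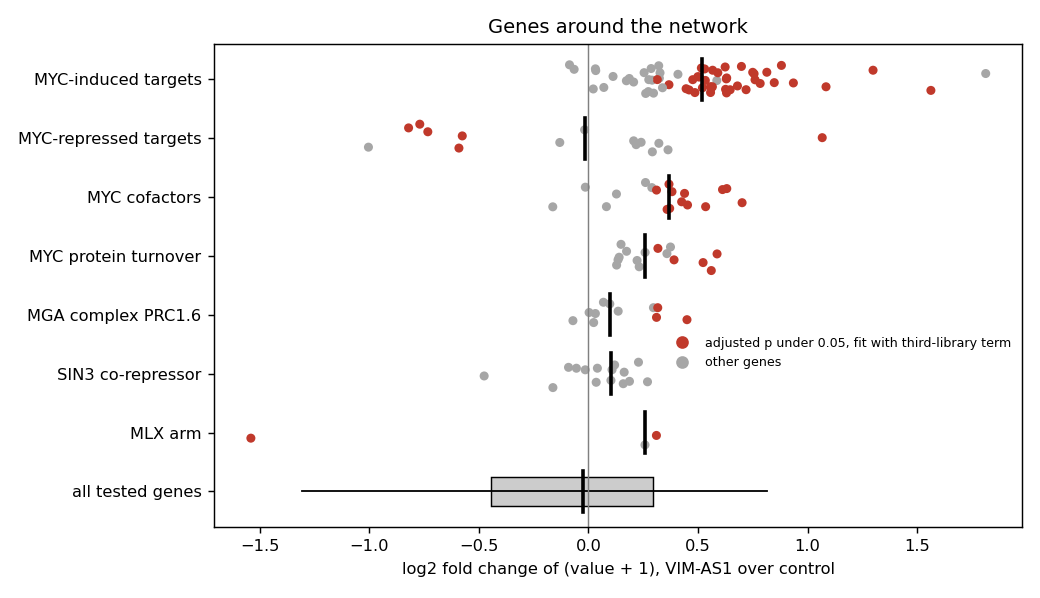
Log2 fold changes, VIM-AS1 over control, of genes in 7 lists around the network (1 point per gene, red where the adjusted p was under 0.05 with the term for the third libraries, black bar at the median) and of all tested genes (box from the 25th to the 75th percentile, line from the 5th to the 95th). The MYC-induced targets have a median of 0.52, against -0.02 for all tested genes, and MLXIPL is the point far to the left.

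Genes listed as repressed by MYC went both ways. Of 15, 5 fell, THBS1 rose and 9 did not pass, with a median log2 fold change of -0.02. Called lower were 33.3%, against 7.94% of all tested genes. In the higher direction 4 had an unadjusted p under 0.05 by limma with the term. edgeR and DESeq2 with the term called 5 lower and 2 higher each, and limma with the replicate block called 5 lower and 3 higher. CLU, which encodes the chaperone clusterin, was at 12388, 14182 and 8463 in the VIM-AS1 libraries and at 17987, 28435 and 16027 in the controls. The inhibitors of cyclin-dependent kinases CDKN2B (134.4 ± 26.5 against 222.6 ± 28.6) and CDKN1C (802.2 ± 123 against 1208 ± 180) fell, whereas CDKN1A, the classic target of MYC repression, had a log2 fold change of -0.13 ± 0.11 (limma with the term, adjusted p = 0.45). DDIT3, a stress-induced factor, fell by 0.77 on the log2 scale. In these 4 genes every VIM-AS1 library lay below every control. THBS1, the antiangiogenic thrombospondin gene, was at 711.2, 645.7 and 883.1 against 275.3, 322.5 and 494.4. PDGFRB, the fifth gene that fell, is also a fibroblast marker. The summed level of 7 measured fibroblast markers was 1795 to 2563 in the VIM-AS1 libraries and 2876 to 3721 in the controls, with COL1A2 and LUM at or near 0. Of the 7, 4 had a mean under 10. The markers went both ways: of the 5 tested, 3 fell and 1 rose, against 7.94% called lower and 11.5% called higher among all tested genes. The part of these markers in the results was not tested. With the third libraries dropped none of the 15 fell by limma (4 at an unadjusted p under 0.05) and 1 rose.

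Cofactors that MYC uses at promoters also rose in part. Of 18, 12 rose and none fell (0 below 0 at an unadjusted p under 0.05, and 0 by edgeR and DESeq2 with the term), with a median log2 fold change of 0.37. These 66.7% called higher stand against 11.5% of all tested genes and 23.0% of those with a mean of at least 100. HCFC1, the host cell factor, had 0.70 ± 0.14, and ACTL6A, an actin-like subunit of chromatin remodellers, 0.63 ± 0.12. The AAA+ ATPase RUVBL1 had 0.61 ± 0.11 and the acetyltransferase KAT2A, also called GCN5, 0.53 ± 0.11. CDK9, the kinase that releases paused polymerase, did not pass (0.08 ± 0.10). The count of 12 dropped to 0 when the third library of either group was left out, to 6 without VIM-AS1 replicate 1 and to 5 without VIM-AS1 replicate 2, and limma, edgeR and DESeq2 without the term called 0, with 4, 5 and 4 higher at an unadjusted p under 0.05.

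Genes of MYC protein turnover had positive fold changes in 15 of 15, of which 5 rose (33.3%, against 11.5% of all tested genes and 23.0% of those with a mean of at least 100). Of all tested genes with a mean of at least 100, 6115 of 9758 had positive fold changes. The 5 turnover genes that rose were USP36, AURKA, STUB1, HUWE1 and CSNK2A1. USP36 encodes a nucleolar deubiquitinase of MYC (0.59 ± 0.10), and AURKA a mitotic kinase that stabilizes MYCN (0.56 ± 0.10). STUB1 (0.52 ± 0.11) and HUWE1 (0.39 ± 0.11) encode ubiquitin ligases, and CSNK2A1 (0.32 ± 0.11) a kinase subunit. AURKA was at 1835 ± 57.3 in the VIM-AS1 libraries and 1245 ± 78.4 in the controls, with no overlap. FBXW7, the ligase subunit best known for marking MYC for degradation, was at 43.2, 59.8 and 81.9 against 54.7, 29.3 and 61.6, and did not pass. With the third libraries dropped limma called 0 of the 15, with 5 higher at an unadjusted p under 0.05.

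Of 15 SIN3 co-repressor genes, limma with the term called 0 (1 higher at an unadjusted p under 0.05), and edgeR and DESeq2 with the term called 0. Among all tested genes limma with the term called 11.5% higher and 7.94% lower. With the replicate block limma called 1 of the 15 higher, BRMS1 (adjusted p = 0.0092). Their median log2 fold change was 0.10. Of 11 partners of MGA in the Polycomb complex PRC1.6, CBX1 (0.45 ± 0.12), TFDP1 (0.32 ± 0.10) and WDR5 (0.31 ± 0.10) rose (27.3%, near the 23.0% of all tested genes with a mean of at least 100) and none fell (0 lower at an unadjusted p under 0.05, and 0 by edgeR and DESeq2). With the third libraries dropped limma called 0 of these 11, with 2 higher at an unadjusted p under 0.05. The lists share genes: WDR5 is also counted among the MYC cofactors that rose. CBX3, which did not pass, is also listed as a MYC-induced target.

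The neighbouring MLX arm, whose factors pair with MLX in place of MAX and sense sugar phosphates, held MLXIPL, which fell furthest of the genes named here. MLXIPL, which encodes ChREBP, was at 378.2, 432.1 and 277.3 in the VIM-AS1 libraries and at 1025, 1224 and 894.1 in the controls. Every VIM-AS1 library lay below every control. MLXIPL fell by 1.54 on the log2 scale (SE 0.12; limma with the term, adjusted p = 1.42e-07; 0.058 without it), and of this arm MLXIPL alone passed when the third libraries were dropped. MLX rose (0.31 ± 0.10), and MLXIP, which encodes MondoA, did not pass (0.26 ± 0.10, adjusted p = 0.082 by limma with the term).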

How the data were processed

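RNA sequencing values of 6 libraries were used. Per the submitters' processing notes, fastp, HISAT2, featureCounts and the build hg38 were used; their versions, the annotation and the strand setting are not given in the sources used here. Per gene, the authors deposited a normalized signal, which the values show to be read counts divided by 1 factor per library. In every library 100% of values were whole multiples of 1 step within 0.01 read, so reads were recovered. Symbols matched 25776 of 25969 identifiers (99.3%), and exon lengths came from GENCODE 29. The main test was limma 3.58.1 (R 4.3.3) with an intensity trend on log2(value + 1), which understates changes of low genes, for genes with a mean of at least 1, two-sided, with Benjamini-Hochberg adjustment over all 20927 genes at 0.05. The second fit adds a term for the third libraries. edgeR 4.0.16 and DESeq2 1.42.0 were run on recovered reads. The limma fits (without the term, with it and with the block), and edgeR and DESeq2 with the term, were tested on simulated data. The other settings were not. The labels state no pairing of libraries, and the replicate block treats same-numbered libraries as paired. Deviations from group means correlated at 0.32, 0.72 and 0.84 between same-numbered libraries. VIM-AS1 replicate 1 correlated more with control replicate 2 (0.42), and VIM-AS1 replicate 2 correlated at 0.33 with control replicate 1. Deviations cancel within a group, so the shift of the third libraries alone can make the others correlate. These values therefore cannot decide whether the numbers pair the first and second libraries. Members and lists were chosen with earlier results of these data known. Named were the members, up to 4 genes per list and direction with the largest called changes, and the 4 genes closest to MYC; other named genes were chosen after their values were seen. 10 listed names were not matched.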

Additional observations from a re-analysis of the deposited data

How the results depend on the processing

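Without the term, the counts over all genes (3 higher, 2 lower) became 133 and 220 by DESeq2, 1619 and 766 with GC content and length trends removed, 15 and 13 with library size scaling, 5 and 12 without a filter, and 179 and 157 from the first and second libraries alone. Leaving out 1 library gave 1 to 3 higher and 0 to 3 lower. The replicate block gave 3315 higher and 2256 lower, 3 network genes in place of 0 and 47 MYC-induced targets; beside the term it added MXD4 and changed no other call of a network gene. With the GC and length trends removed 1 network gene (MXD3) was called without the term. With the term (2403 higher, 1662 lower), the first and second libraries alone gave 179 and 157, and leaving out 1 library gave 127 to 2747 higher and 109 to 1591 lower. Of the 2 network genes called with the term, 1 remained (MXD3) with TMM scaling, no filter, a filter of 10 reads, a pseudocount of 0.1 or DESeq2. Library size scaling, and leaving out control replicate 1, called MXD3 and MXD4 (adjusted p = 0.0157 and 0.0162 for MXD4 by limma) and not MYCL. With the term the first and second libraries alone called 0 network genes, 7 MYC-induced targets and 0 MYC cofactors. Leaving out 1 library gave 0 to 2 network genes, 5 to 43 MYC-induced targets and 0 to 12 MYC cofactors. The counts of MYC-induced targets and cofactors were added as alternatives after seeing the data. The sign of MNT turned to -0.051 with library size scaling and -0.038 from the first and second libraries alone in both fits, and by edgeR to -0.0029 without the term and -0.00013 with it. Leaving out 1 library gave -0.12 to 0.089 for MNT without the term and -0.038 to 0.034 with it, -0.14 to 0.15 and -0.091 to 0.10 for MAX, and -0.61 to 1.16 and -0.80 to 1.08 for MYCN. Without the term it gave -0.24 to 0.012 for MXI1 and -0.060 to 0.38 for MGA. The causes were not tested. Library size scaling moved the median of all genes to -0.08. Depth limits MYCN and MYCL, the network genes with the fewest reads.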
